A study of Mus musculus with 12 samples.

Results

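Digestive genes of the intestinal brush border, 9 in number, were followed through RNA-Seq libraries of mouse colon. They are Mep1a, Mep1b, Anpep and Dpp4 (peptidases), Sis (a disaccharidase), and Slc15a1, Slc6a19, Slc7a9 and Slc3a1 (subunits of peptide and amino acid transporters). They were chosen by name, 9 of the 54532 genes in the count table, with earlier results of the same libraries known. Their values are therefore given as a description, and where a test over the whole table gave a call for a member, the call supports nothing further. The colons came from wild-type male C57BL/6J mice 5 weeks old, with 3 libraries in each of 4 groups. Control mice were untreated. Model mice received dextran sodium sulfate (DSS), a polymer in the drinking water that injures the colonic epithelium and gives acute colitis. Rhy mice received DSS and rhynchophylline, an alkaloid of Uncaria plants. The labels name Rhy dose groups of 2, 4 and 8 mg/kg but do not say which of them was sequenced. DXM mice received DSS and dexamethasone, a synthetic glucocorticoid, at 4 mg/kg. All DSS groups thus share the colitis agent, no group received a drug without DSS, and which stretch of the colon each piece came from is not given.

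The brush border is the layer of microvilli on the luminal face of absorptive cells. Enzymes anchored in it cut peptides and disaccharides to their last digestion products, and carriers beside them take up small peptides and amino acids. This machinery is densest in the small intestine. Mature colonocytes keep part of it, with meprins and the peptide carrier Slc15a1 among the parts known from mouse colon.

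The meprins Mep1a and Mep1b stood highest of the 9 genes per kilobase in 11 libraries, and both were lower in every model library than in any control library. Anpep, Sis and Slc6a19 were at low levels in most libraries and were many times higher in 1 library, the third of the Rhy group (Rhy 3). Slc3a1 was lowest in the 3 DXM libraries. The quasi-likelihood test of edgeR gave no adjusted p under 0.05 in any comparison, for the members or for any other of the 16904 genes tested.

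Libraries held 14346478 to 17749716 counted reads, and all 9 members passed the filter on low counts. Levels below are CPM (reads relative to the TMM-scaled library total) unless FPKM, the deposited value per kilobase of gene length, is named. The epithelial marker Epcam was at 1144 to 2207 CPM in the 12 libraries. Hoxb13, a gene of the distal colon, was at 0.165 CPM in control 3, 1.49 in model 3 and 0 in Rhy 1, against 72.0 to 316 CPM in the other libraries, the 3 DXM libraries included. Model 1 and model 2 lay closer to each other than any other pair, with a median absolute log2 difference over genes of 0.0789 against 0.200 or more for other nearest neighbours. Their squared differences were 1.92 times what counting error alone gives. Repeat preparations from the same mouse can also exceed counting error, so this ratio cannot show that the mice were separate. Both were kept as replicates because the labels give them so. The neutrophil genes S100a8 and S100a9, which mark inflamed colon, were at 0 to 0.243 CPM in the model libraries. The sum of 8 myeloid markers, S100a8 and S100a9 among them, was 113 to 905 CPM in control and 187 to 280 CPM in model. It was 76.4 to 524 CPM in Rhy and 413 to 791 CPM in DXM.

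Rhy 3 stood apart by genes that mark the small intestine. The summed level of 9 such markers was 903 CPM in Rhy 3 and 41.3 to 133 CPM in the other 11 libraries. Apoa1, an apolipoprotein of small intestine and liver, was at 461 CPM in Rhy 3, 24.3 CPM in DXM 1 and at most 1.11 CPM elsewhere. Fabp6, the ileal bile acid binding protein, was at 324 CPM in Rhy 3 against at most 20.3 CPM elsewhere. Gata4 and Lct, which mark the upper small intestine, were both at 0.340 CPM in Rhy 3, while Hoxb13 was at 230.5 and Hoxd13 at 115 CPM there. Of all genes tested, 18 (0.106%) were in Rhy 3 at 4 or more times their highest level in any other library, and 3 of these were members. By the same rule control 1 had 10 genes, DXM 3 had 7 and each remaining library at most 4, with no member among them. The filter asks for reads in several libraries, so genes read in Rhy 3 alone are not counted here. The part of these small intestinal genes in the results of the Rhy group was not tested, and the members' comparisons with Rhy are given with and without Rhy 3. Reads from mitochondrial genes made up 6.33% to 25.7% of the libraries, with 25.7% in DXM 1 as the highest.

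**Figure D1:**
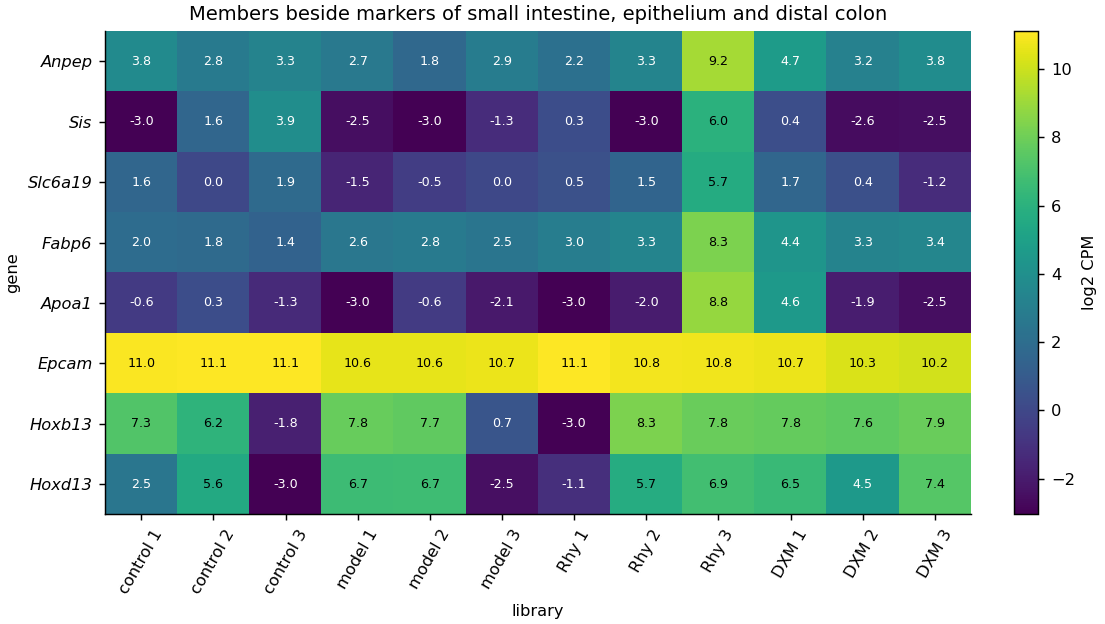
Level (log2 CPM, colour and number) of 3 members, 2 genes high in the small intestine (Fabp6, Apoa1), the epithelial marker Epcam and the distal colon genes Hoxb13 and Hoxd13 in the 12 libraries. Anpep, Sis, Slc6a19, Fabp6 and Apoa1 were highest in Rhy 3, and Hoxb13 was near 0 CPM in control 3, model 3 and Rhy 1.

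Upstream sequences are shown for the 3 members that were high in Rhy 3 and for Slc3a1, which was low in DXM. RefSeq (GRCm38.p6) gave a promoter for 8 of the 9 members, all but Mep1b. The 250 bases before the RefSeq start were searched on both strands for motifs of transcription factors of the absorptive cell. These were CAAAGTNCA for HNF4, GTTAAT as part of an HNF1 site, TTTATNG for CDX factors, and AGATAA as the motif of the GATA family. Capitals mark the matches, each line runs 5′ to 3′ on the gene's strand, and no matches overlapped. Sis lies at chr3:72967864-72968113 (minus strand), Slc3a1 at chr17:85028097-85028346 (plus), Anpep at chr7:79848211-79848460 (minus) and Slc6a19 at chr13:73692637-73692886 (minus).
Sis: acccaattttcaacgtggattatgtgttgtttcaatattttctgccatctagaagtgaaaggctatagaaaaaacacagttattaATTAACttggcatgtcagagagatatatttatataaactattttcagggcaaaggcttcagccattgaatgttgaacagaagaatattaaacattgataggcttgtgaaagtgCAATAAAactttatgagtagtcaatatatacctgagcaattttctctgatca
Slc3a1: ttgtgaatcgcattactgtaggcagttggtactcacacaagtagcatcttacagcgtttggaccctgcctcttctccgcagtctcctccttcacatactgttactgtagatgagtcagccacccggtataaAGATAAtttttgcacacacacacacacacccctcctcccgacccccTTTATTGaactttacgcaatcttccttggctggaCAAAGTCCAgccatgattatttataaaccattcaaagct
Anpep: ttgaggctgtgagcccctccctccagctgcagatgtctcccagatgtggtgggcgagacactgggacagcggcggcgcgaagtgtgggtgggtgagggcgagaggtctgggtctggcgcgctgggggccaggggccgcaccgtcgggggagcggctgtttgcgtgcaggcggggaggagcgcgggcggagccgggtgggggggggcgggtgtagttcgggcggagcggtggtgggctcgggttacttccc
Slc6a19: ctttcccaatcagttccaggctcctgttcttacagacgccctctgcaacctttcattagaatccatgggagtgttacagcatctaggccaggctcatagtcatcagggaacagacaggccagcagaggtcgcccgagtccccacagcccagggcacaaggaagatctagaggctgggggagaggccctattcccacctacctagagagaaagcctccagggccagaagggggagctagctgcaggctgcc

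Slc3a1 held 3 of the 4 motifs, with HNF4 at bases -39 to -31 from the start, CDX at -73 to -67 and GATA at -119 to -114. Sis held the HNF1 letters at -165 to -160 and CDX at -52 to -46, both read on the opposite strand. Dpp4 held CDX and GATA, 1 of 2 Slc7a9 promoters held GATA at 2 places, and the windows of Anpep, Slc6a19, Mep1a and Slc15a1 held none of these letters. Over 32851 RefSeq promoters of the same length, HNF4 was found in 1.19%, the HNF1 letters in 6.43%, CDX in 9.81% and GATA in 9.99%. The windows of Anpep and Slc6a19 and the 2 windows of Slc7a9 lie inside the gene intervals of the count table, and that of Mep1a overlaps its interval in part. The annotation used for counting extends these genes further upstream.

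Mep1a and Mep1b encode the alpha and beta subunits of meprin, a zinc metalloprotease of the brush border that cleaves peptides and extracellular proteins. Mep1a (chromosome 17, 43474324 to 43502812 in mm10, minus strand) was at 298, 550.2 and 494 CPM in control 1 to 3 and at 167, 163 and 296 CPM in model 1 to 3. It was at 431, 280.2 and 169 CPM in Rhy 1 to 3 and at 243, 107 and 64.3 CPM in DXM 1 to 3. The control and model groups were separate by a narrow margin, 298 against 296 CPM, and the Rhy libraries spread over both. In order of group means, Mep1a ran control (447 ± 132 CPM), Rhy (293 ± 132), model (208 ± 75.8) and DXM (138 ± 93.3; SD, n = 3 here and below), and each neighbouring pair of groups overlapped.

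Mep1b (chromosome 18) was at 343, 204 and 181 CPM in the control libraries and at 82.4, 84.4 and 114 CPM in the model libraries. The Rhy libraries were at 254, 165 and 122 CPM and the DXM libraries at 117, 61.9 and 35.9 CPM. All 3 model libraries were below all 3 control libraries and also below all 3 Rhy libraries, although Rhy 3 at 122 CPM lay close to model 3. The group means kept the order seen for Mep1a, with 243 ± 87.8 CPM in control, 180 ± 67.6 in Rhy, 93.4 ± 17.4 in model and 71.7 ± 41.6 in DXM. Only the step from Rhy to model separated neighbouring groups in this order.

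Anpep (chromosome 7, 79821803 to 79861059, minus strand) encodes aminopeptidase N, which removes single residues from the amino end of peptides. It was at 13.4, 6.75 and 9.77 CPM in control, 6.40, 3.28 and 7.27 in model, and 25.9, 8.82 and 14.1 in DXM. The Rhy libraries were at 4.37, 10.1 and 579 CPM. The value of Rhy 3 was 22.3 times the next highest, that of DXM 1, and the other Rhy libraries lay within the range of the control and model libraries. The Rhy mean of 198 ± 330 CPM thus describes none of its libraries.

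Dpp4 (chromosome 2, 62330073 to 62412231, minus strand) encodes dipeptidyl peptidase 4, which trims dipeptides from peptides and incretin hormones. It was at 10.3, 24.8 and 40.4 CPM in control and at 37.3, 34.4 and 33.4 CPM in model. The Rhy libraries were at 30.9, 34.0 and 83.4 CPM and the DXM libraries at 24.3, 19.5 and 30.4 CPM. Dpp4 was the only member with a higher mean in model than in control, where control 1 and control 3 differed more than the group means did. The model libraries lay close together and above all 3 DXM libraries, and Rhy 3 was again the highest, at 2.06 times control 3.

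Sis (chromosome 3, 72888557 to 72967863, minus strand) encodes sucrase-isomaltase, which splits sucrose and starch fragments and is a gene of small intestinal enterocytes. It had 0, 43 and 264 reads in control 1 to 3, 1, 0 and 5 in the model libraries, 13, 0 and 1132 in the Rhy libraries, and 17, 1 and 1 in the DXM libraries. In CPM, control 3 stood at 14.5 and Rhy 3 at 64.1, and no other library exceeded 2.99. Sis was thus carried by 2 libraries in different groups, at 4.42 times in Rhy 3 what it was in control 3. Control 3 held 44.6 CPM of the small intestinal markers, within the range of the libraries other than Rhy 3, and was 1 of the libraries with Hoxb13 near 0. With 6 reads in the whole model group, the fitted changes of Sis rest on very few reads.

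Slc15a1 (chromosome 14, 121459621 to 121505252, minus strand) encodes PEPT1, the proton-coupled carrier of dipeptides and tripeptides. It was at 92.0, 51.2 and 44.7 CPM in control and at 42.7, 43.3 and 10.6 CPM in model. The Rhy libraries were at 40.0, 117 and 49.0 CPM and the DXM libraries at 50.9, 21.8 and 30.7 CPM. Model and control did not overlap, though model 2 and control 3 differed by little, and model 3 was the lowest of all 12 libraries. Among the Rhy libraries Rhy 2 was the high one, and Rhy 3 was within the control range.

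Slc6a19 (chromosome 13, 73679745 to 73704865, minus strand) encodes B0AT1, the sodium-coupled carrier of neutral amino acids. It was at 2.995, 0.904 and 3.51 CPM in control and at 0.221, 0.607 and 0.894 CPM in model. The DXM libraries were at 3.02, 1.21 and 0.304 CPM and the Rhy libraries at 1.28, 2.74 and 51.1 CPM. The model libraries were below all control and all Rhy libraries, at 0.894 against 0.904 CPM where model met control. Rhy 3 was 14.5 times the next highest library, control 3.

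Slc7a9 and Slc3a1 encode the light and heavy chains of 1 exchanger, which takes up cystine and dibasic amino acids, and both are known as cystinuria genes. Slc7a9 (chromosome 7, 35448796 to 35466036, plus strand) was at 24.3, 5.08 and 12.5 CPM in control, 5.07, 5.70 and 4.41 in model, 6.59, 12.5 and 29.9 in Rhy, and 14.4, 8.92 and 3.90 in DXM. Its model libraries were below all Rhy libraries, and control 2 lay among them. Slc3a1 (chromosome 17, 85028347 to 85064243, plus strand) was at 8.54, 81.4 and 72.5 CPM in control and at 15.9, 13.2 and 32.8 in model. It was at 32.1, 11.1 and 21.7 CPM in Rhy and at 5.76, 5.40 and 0.506 CPM in DXM, with all DXM libraries below every other library. The chains did not follow each other over libraries: Slc7a9 was highest in Rhy 3 and Slc3a1 in control 2, and control 1 was high for the first and low for the second. Slc3a1 shares 767 bases with Prepl on the other strand, which had 344 to 900 reads per library. As the use of strand in counting is not stated, reads in that stretch cannot be assigned with certainty.

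**Figure D2:**
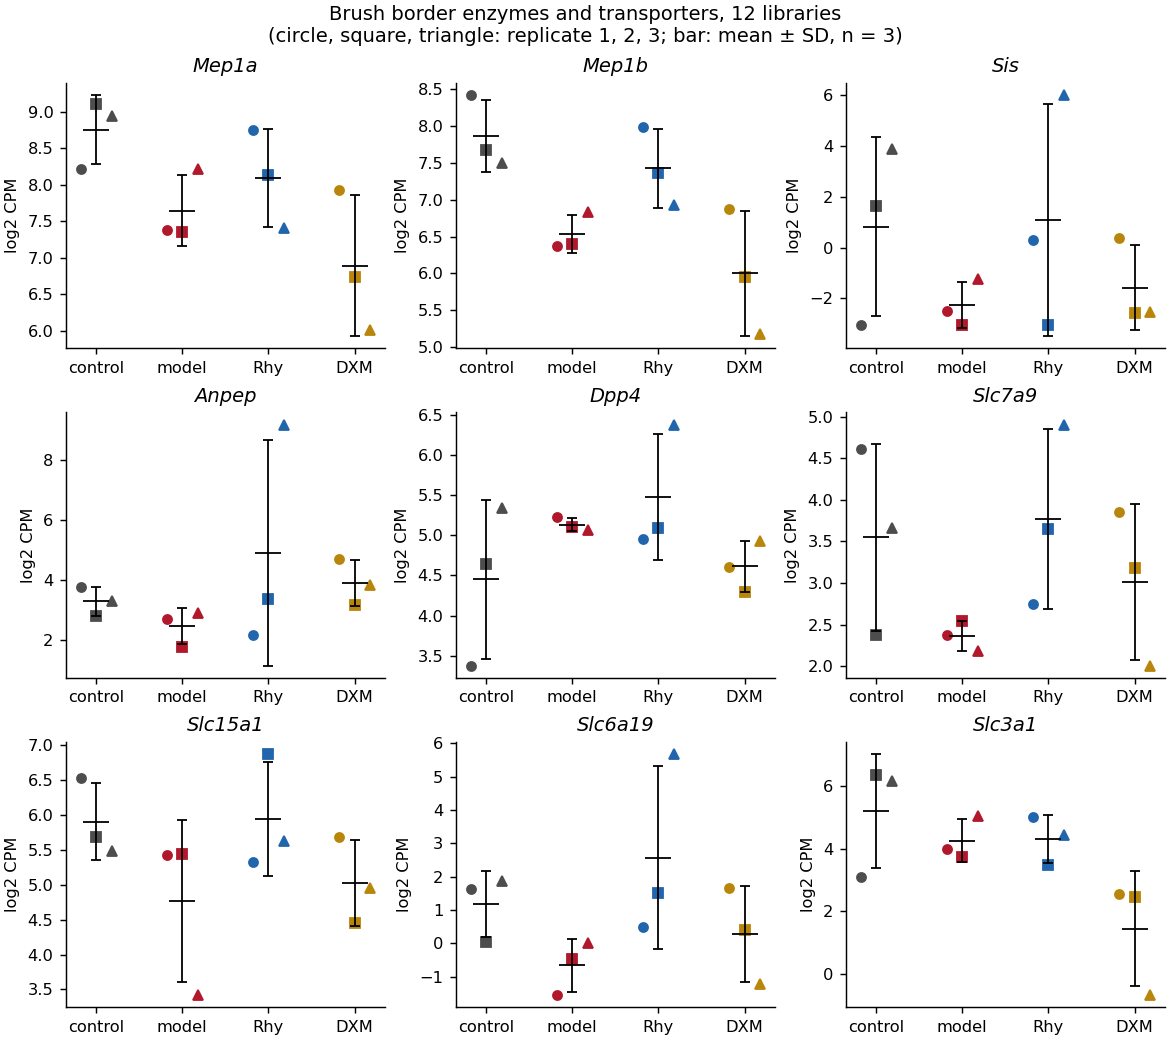
Level of each of the 9 genes (log2 CPM, prior count 2) in the 12 libraries by group, with 1 point per library (circle, square and triangle for replicates 1, 2 and 3), and bars for the mean ± SD of 3 libraries. Anpep, Sis and Slc6a19 had their highest point in Rhy 3, at 579, 64.1 and 51.1 CPM, and Slc3a1 was lowest in the DXM libraries.

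Per kilobase of gene length, the meprins led in 11 libraries, with Mep1a at 18.1 to 162 FPKM and Mep1b at 15.2 to 151 FPKM over those 11. Slc3a1 and Slc15a1 followed in control, at 23.7 ± 17.5 and 12.9 ± 5.22 FPKM. Slc7a9, Dpp4 and Anpep had control means of 5.26 ± 3.63, 4.02 ± 2.42 and 2.43 ± 0.800 FPKM, which did not differ beyond their spread. Sis and Slc6a19 were lowest, at 0.789 ± 1.04 and 0.497 ± 0.278 FPKM. In Rhy 3 this order did not hold, and Anpep led at 139 FPKM, followed by Mep1b at 52.9 and Mep1a at 48.6 FPKM.

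The comparison of model with control asked how DSS colitis bore on these genes. On the log2 scale of the edgeR fit, 8 of 9 members were lower in model, beside 49.3% of all genes tested, and 1 was higher (50.7% of all genes). The differences were -1.10 (SE 0.49) for Mep1a, -1.38 (SE 0.42) for Mep1b, -1.46 (SE 0.64) for Slc7a9, -1.39 (SE 0.82) for Slc3a1 and -0.96 (SE 0.55) for Slc15a1. For the members with few reads, they were -2.11 (SE 1.28) for Slc6a19 and -5.56 (SE 2.43) for Sis. Anpep was at -0.82 (SE 1.27), and Dpp4 stood alone on the other side at 0.48 (SE 0.45). Each SE came from 1 fit of all 12 libraries, which included Rhy 3 with Anpep at 579 CPM. The median over members was -1.38, beside 0.0064 over all genes. Mep1a, Mep1b, Slc15a1 and Slc6a19 were lower in every model library than in any control library, 4 of 9 where 6.61% of all genes were, and no member was higher without overlap (10.4% of all genes). These counts take model 1 and model 2, which lay close together, as separate libraries. With both summed as 1 library, 8 of 9 members were lower, with a median of -1.22. Of all genes, 2.93% were then higher and 2.06% lower at an unadjusted p under 0.05 with edgeR, against 5.11% and 4.51% in the main fit. Leaving out single libraries moved several of the members' differences. Slc7a9 was at -0.80 and Slc15a1 at -0.58 without control 1, Slc15a1 at -0.58 without model 3, Anpep at -0.54 without model 2, and Sis at -3.63 without control 3. Dpp4 was at 0.10 without control 1 and at 0.97 without control 3. At an adjusted p under 0.05 edgeR called 0% of genes, at an unadjusted p under 0.05 it had 863 higher and 763 lower genes, and DESeq2 called 46 (0.509%), no member among them.

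All 9 markers of colon epithelium also had lower values in model, with a median of -0.40, and their summed level was 17242 to 25689.5 CPM in control and 15580 to 18536 CPM in model. Fewer epithelial cells and less RNA per cell cannot be told apart in such tissue. Myeloid markers were lower in model for 7 of 8 genes (median -0.94) and fibroblast markers for 6 of 6 (-0.43), while smooth muscle markers were higher for 7 of 8 (0.06). With the mean of the epithelial markers as a term in the fit, the median over members moved from -1.38 to -0.56, with 9 of 9 lower. Their part in the result was not tested further.

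Rhy was compared with model to ask what the alkaloid added to DSS. All 9 members had higher values in Rhy, beside 48.3% of all genes higher and 51.7% lower, and their median difference was 1.09 against -0.015 over all genes. Sis, Anpep and Slc6a19 had the largest values, at 7.45 (SE 2.51), 5.13 (SE 1.45) and 5.00 (SE 1.36). Slc7a9 was 1.69 (SE 0.65) higher, Slc15a1 1.09 (SE 0.55), Mep1b 0.95 (SE 0.41), Dpp4 0.50 (SE 0.45), Mep1a 0.49 (SE 0.48) and Slc3a1 0.07 (SE 0.81). Mep1b, Slc7a9 and Slc6a19 were higher in every Rhy library than in any model library, 3 of 9 where 5.51% of all genes were, and none was lower without overlap (6.02% of all genes). Slc3a1 turned below 0 in 5 of 24 alternatives. edgeR called 0% of genes at an adjusted p under 0.05, with 294 higher and 334 lower at an unadjusted p under 0.05, and DESeq2 called 5 (0.0167%), no member among them.

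Without Rhy 3, the value of Anpep went from 5.13 to 0.36 (SE 0.53), that of Sis from 7.45 to 2.11 (SE 2.20) and that of Slc6a19 from 5.00 to 1.81 (SE 0.90). Slc7a9 went from 1.69 to 0.92 (SE 0.62), and Dpp4 turned from 0.50 to -0.11 (SE 0.42). The meprins and Slc15a1 were further above model without this library, at 0.77 (SE 0.50) for Mep1a, 1.16 (SE 0.44) for Mep1b and 1.28 (SE 0.61) for Slc15a1, and Slc3a1 was at 0.06 (SE 0.94). Other libraries also moved these values. Without Rhy 1, Mep1a was at 0.11 and Mep1b at 0.62 (Slc3a1 at -0.33), and without Rhy 2, Slc15a1 was at 0.47 (Slc3a1 at 0.38). Without model 3, Mep1a was at 0.86, Slc15a1 at 0.70 and Slc3a1 at 0.60. With Rhy 1 and Rhy 2 alone, 8 of 9 members were above 0 and the median was 0.92, so that the sizes of the 3 largest values rest on Rhy 3.

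**Figure D3:**
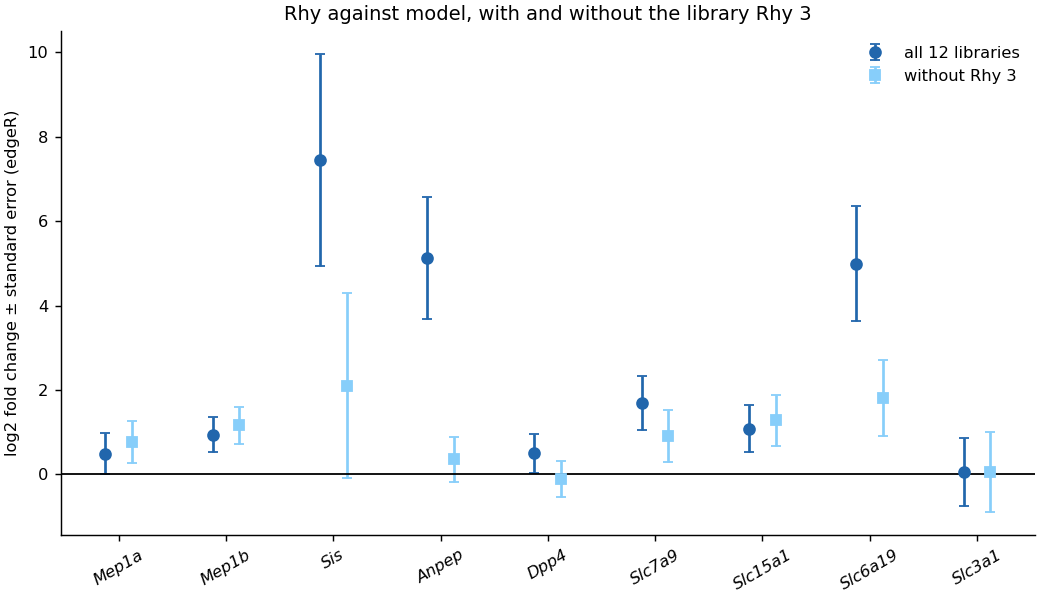
Difference between Rhy and model (log2 fold change ± SE, edgeR) of the 9 genes with all 12 libraries (circles) and without Rhy 3 (squares). Anpep went from 5.13 to 0.36 without that library, and Mep1b from 0.95 to 1.16.

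Marker lists of other cells were set side by side in the same way. Markers of the colon epithelium were higher in Rhy for 9 of 9 genes (median 0.30, and 0.32 without Rhy 3), of smooth muscle for 8 of 8 (0.37, and 0.39 without Rhy 3, with 7 of 8 higher), of fibroblasts for 5 of 6 (1.25, and 0.81 without Rhy 3) and of myeloid cells for 8 of 8 (0.39, and -0.06 without Rhy 3, with 3 of 8 higher). T cell markers were lower for 6 of 6 (-0.83, and -1.21 without Rhy 3, with 6 of 6 lower). Their part in the members' values was not tested. With the epithelial term the median over members was 1.01, close to the value without it.

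DXM was compared with model to ask the same of the glucocorticoid. Members were divided, with 5 higher and 4 lower (48.5% and 51.5% of all genes) and a median of 0.10. Slc3a1 was at -2.41 (SE 0.87), and Slc3a1 and Dpp4 were lower in every DXM library than in any model library, 2 of 9 where 12.2% of all genes were. Anpep was higher in every DXM library than in any model library, at 1.52 (SE 1.28), 1 of 9 where 10.4% of all genes were. Its SE again came from the fit that included Rhy 3. The meprins had values of -0.60 (SE 0.48) for Mep1a and -0.38 (SE 0.41) for Mep1b, with overlapping groups. The other values were 1.65 (SE 2.75) for Sis, 1.36 (SE 1.29) for Slc6a19, 0.84 (SE 0.64) for Slc7a9, 0.10 (SE 0.55) for Slc15a1 and -0.50 (SE 0.45) for Dpp4. edgeR called 0% at an adjusted p under 0.05, with 827 higher and 473 lower at an unadjusted p under 0.05, and DESeq2 called 51 (0.247%), none of them a member.

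The sign of this median depended on single libraries. It was -0.49 without DXM 1, with 6 of 9 members lower, and -0.20 without model 3, with 5 of 9 lower, and it turned in 5 of 24 alternatives in all. Without DXM 1, Mep1a was at -1.29, Mep1b at -0.93, Sis at -1.13, Slc6a19 at 0.41, Slc7a9 at 0.34 and Slc15a1 at -0.29. Without model 3, Mep1a was at -0.24, Mep1b at -0.20, Sis at 3.43 and Slc15a1 at -0.31, and without DXM 3, Mep1a was at -0.25, Mep1b at -0.06 and Slc15a1 at 0.17. DXM 1 had the highest level of the 3 DXM libraries for 8 of the 9 members, Dpp4 being the exception, and had the second highest sum of small intestinal markers, 133 CPM. Its share of mitochondrial reads was 25.7%, against 7.88% in DXM 2 and 7.48% in DXM 3, and its part in the members' values was not tested. Fibroblast markers were higher in DXM than in model for 6 of 6 genes (median 1.77), as were myeloid markers for 8 of 8 (1.31) and smooth muscle markers for 8 of 8 (0.68). The summed epithelial markers were 14227 to 17415 CPM in DXM. With the epithelial term in the fit, the median over members was 0.25, with 5 of 9 higher. The part of these marker differences in the members' values was not tested further.

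**Figure D4:**
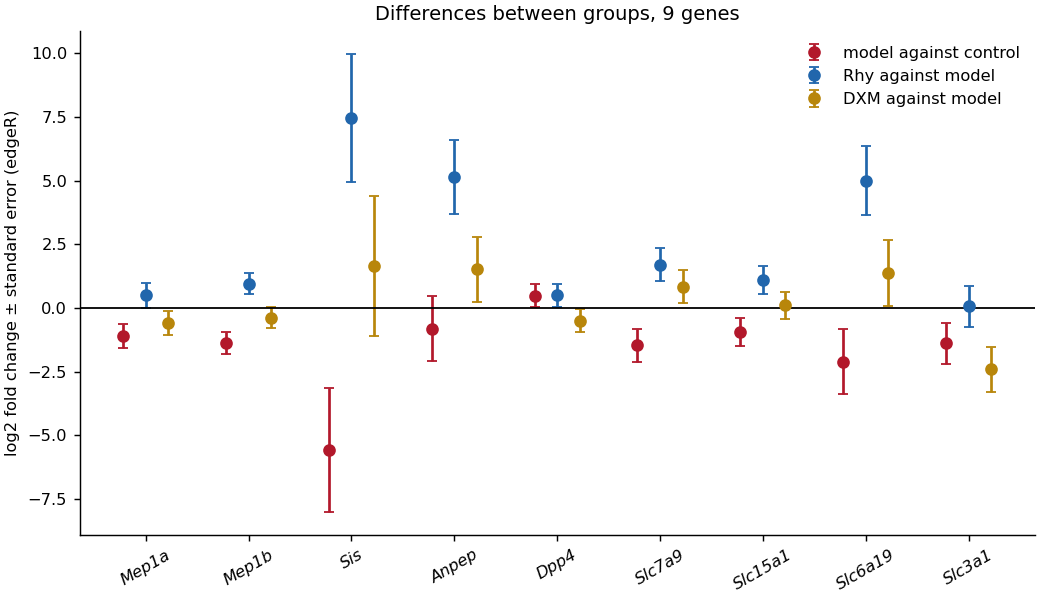
Difference between groups (log2 fold change ± SE, edgeR) for each of the 9 genes in model against control, Rhy against model and DXM against model. Mep1a and Mep1b were below 0 in model against control (-1.10 and -1.38), and Slc3a1 was at -2.41 in DXM against model.

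Both drug groups were also set against control, which those comparisons share with the first one. In Rhy, 6 of 9 members were higher than in control (47.7% of all genes higher, 52.3% lower), and no member's groups were separate, where 7.5% of all genes were higher and 4.79% lower without overlap. The median was 0.23 with Rhy 3 and -0.33 without it, when 7 of 9 were lower. The sign turned for Anpep (4.31 to -0.46), Sis (1.89 to -3.45), Slc6a19 (2.89 to -0.29) and Slc7a9 (0.23 to -0.54). Mep1a was at -0.61 (SE 0.48), Mep1b at -0.43 (SE 0.41) and Slc3a1 at -1.33 (SE 0.82), and none of these turned without Rhy 3. Without it, Dpp4 went from 0.97 to 0.37, Mep1a to -0.33, Mep1b to -0.21, Slc15a1 from 0.13 to 0.33 and Slc3a1 stayed at -1.33. Mep1b was at -0.10 without control 1, and Slc15a1 at -0.49 without Rhy 2.

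In DXM against control, 8 of 9 members were lower and 1 higher (46.2% and 53.8% of all genes), with a median of -0.86. Dpp4, at -0.03 (SE 0.45), turned above 0 in 8 of 24 alternatives, upper-quartile scaling among them, Slc7a9 (-0.63, SE 0.63) in 2 and Slc6a19 (-0.74, SE 1.19) in 1. The median was -0.60 without control 1 and -1.70 without DXM 1. Slc3a1 was at -3.81 (SE 0.91), Mep1b at -1.76 (SE 0.42) and Mep1a at -1.70 (SE 0.49), and these 3 were lower in every DXM than in any control library, where 8.89% of all genes were and 9.77% were higher. DESeq2 called these 3 members at an adjusted p under 0.05 among the 1059 genes it called (7.43%), while edgeR called 0%, with 1467 higher and 1722 lower at an unadjusted p under 0.05. All 9 epithelial markers were also lower (median -0.66), while fibroblast markers were higher for 5 of 6 genes (1.52), smooth muscle markers for 8 of 8 (0.75) and myeloid markers for 6 of 8 (0.51). With the mean of the epithelial markers as a term in the fit, the median over members moved from -0.86 to -0.67. Then 6 of 9 members were lower and 3 higher, with Slc7a9 at 0.54 and Slc6a19 at 0.05. The part of these markers in the members' values was not tested further. For Rhy against control edgeR called 0% and had 1092 higher and 861 lower at an unadjusted p under 0.05, and DESeq2 called 32 (0.187%), no member among them.

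Further genes of the brush border were taken from 4 lists written from general knowledge. Of 17 other brush border enzymes, 14 passed the filter. Against control, 12 of these 14 were lower in model (median -0.76), and 12 of 14 were higher in Rhy than in model (0.44, and 0.09 without Rhy 3, with 10 of 14 higher). As for the whole table, 0 genes of these 4 lists reached an adjusted p under 0.05 with edgeR in the 5 comparisons. The 3 with the highest FPKM were the dipeptidase Dpep1, the alkaline phosphatase Alpi and the starch enzyme Mgam. Dpep1 was at 587, 367 and 418 CPM in control, 189, 191 and 344 in model, 614, 254 and 116 in Rhy, and 70.4, 175 and 33.7 in DXM. This is the pattern of the meprins, with every model library below every control library. Alpi was at 60.6, 239.6 and 132 CPM in control and at 57.7, 21.7 and 0.506 CPM in DXM, without overlap, and Mgam stayed within 131 to 245 CPM in the 12 libraries.

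Of 21 other apical nutrient transporters, 19 passed, and 13 of them were lower in model than in control (median -0.36). In Rhy 14 of 19 were higher than in model (0.10), and 10 of 19 without Rhy 3 (0.11), and in DXM 11 of 19 (0.28). Slc6a14, a carrier of neutral and cationic amino acids, had a difference of -0.36 (SE 0.39) between model and control and of 0.10 (SE 0.39) between Rhy and model. The zinc carrier Slc39a4 was at 263, 292 and 241 CPM in control and at 145, 147 and 163 in model, without overlap, and the glucose carrier Slc5a1 was at 80.3 to 226 CPM over all libraries.

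Of 9 partners and scaffolds of membrane carriers, some of them carriers themselves, 7 passed, with 3 higher and 4 lower in model. Slc9a3r1, the scaffold NHERF1, was at 999, 1005 and 517 CPM in control and at 347, 317 and 516 CPM in model. The sodium-proton exchanger Slc9a3 was at 275 to 782 CPM in control and model, but at 31.7 in Rhy 3, 63.4 in DXM 1 and 27.5 in DXM 3, so that it was low in the library where Anpep was highest. Slc3a2, the heavy chain of other amino acid carriers and a relative of Slc3a1, differed by 0.04 (SE 0.21) between model and control. Of 13 enterocyte transcription factors, 12 passed, with 9 lower in model than in control (median -0.08) and 9 lower in DXM than in model (-0.34). Hnf4a was at 823 to 1006 CPM in control and 579.6 to 704 in model, whereas Cdx1 was at 318 to 439.6 CPM in control and 487 to 609 in model, and Elf3 differed by -0.10 (SE 0.22).

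Over the 12 libraries, pairs of members were compared by Pearson's r of log2 CPM, as a description of points that share groups and depth. The meprins followed each other (r = 0.874, and 0.883 over the 11 libraries without Rhy 3), and Mep1a and Slc3a1 did so too (0.852 and 0.883). Slc7a9 and Slc6a19 were at 0.879, and at 0.865 without Rhy 3. In contrast, Anpep and Slc6a19 went from 0.841 to 0.441 without Rhy 3, and Sis and Anpep from 0.643 to 0.077. Slc7a9 and Slc3a1, whose proteins form 1 exchanger, had an r of 0.080. Of the pairs below 0, Mep1b with Dpp4 (-0.263) was the lowest. Anpep with Mep1a (-0.204), Dpp4 with Slc15a1 (-0.144) and Anpep with Slc3a1 (-0.094) followed. Without Rhy 3, Dpp4 with Slc7a9 was the lowest (-0.58), followed by Anpep with Slc3a1 (-0.472).

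**Figure D5:**
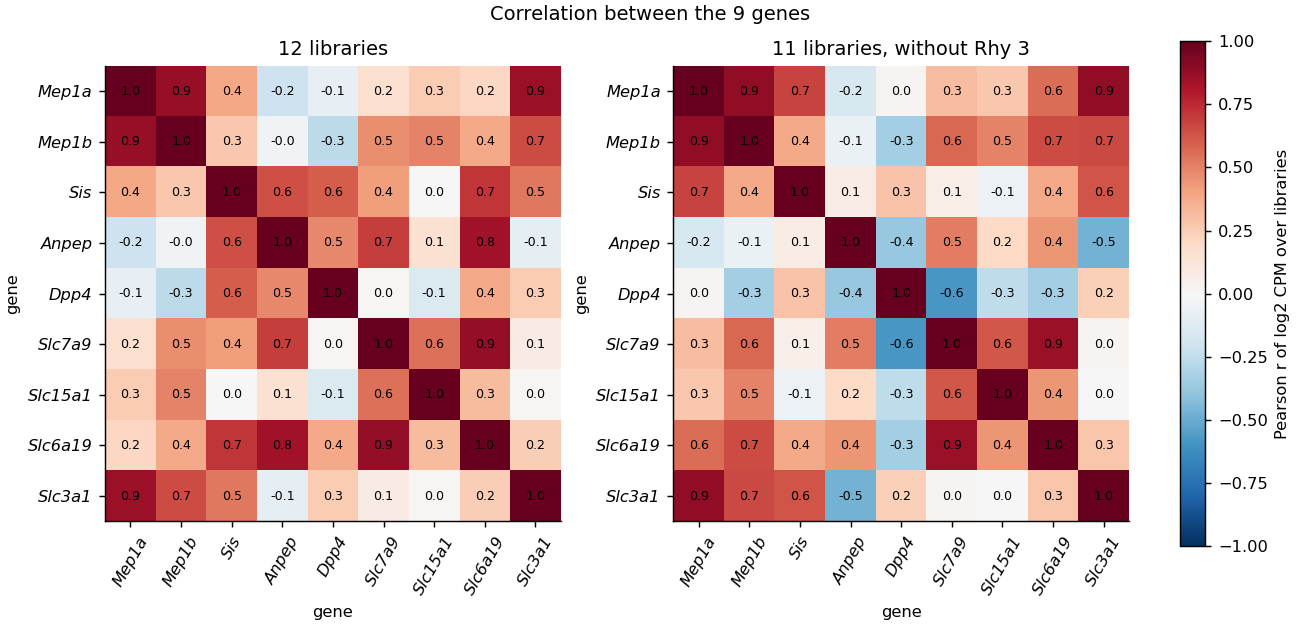
Pearson's r of log2 CPM between each pair of the 9 genes over 12 libraries (left) and over 11 libraries without Rhy 3 (right). Mep1a followed Mep1b (0.874 and 0.883) and Slc3a1 (0.852 and 0.883) in both, with Mep1b and Slc3a1 less alike (0.655 and 0.66). In contrast, Anpep and Slc6a19 went from 0.841 to 0.441 without Rhy 3.

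The genes outside the 9 that were most like the members' mean (log2 CPM, each centred on its own mean) over 12 libraries were Enpep (r = 0.870), Ada (0.867), Naaladl1 (0.857), Snx9 (0.848) and Aspa (0.839). Enpep and Naaladl1 are brush border peptidases from the list of other enzymes, and Ada deaminates adenosine. Enpep was at 184 CPM in Rhy 3 and at most 42.9 CPM elsewhere, and Naaladl1 at 233 and at most 42.6 CPM, in both cases with control 3 second. Without Rhy 3 the 5 most alike genes were Garem1 (0.920), Shroom3 (0.912), Fam83e (0.908), Cnksr3 (0.905) and Pgm1 (0.901), and no gene stood in both sets of 5. Garem1 was at 22.0, 27.9 and 28.7 CPM in control, 13.3, 13.2 and 15.0 in model and 16.0, 7.66 and 6.08 in DXM, the order of the meprins.

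Levels of the members in libraries with little Hoxb13 bear on the comparisons, since control 3, model 3 and Rhy 1 belong to different groups. Slc15a1 was lowest of its group in control 3, model 3 and Rhy 1 (44.7, 10.6 and 40.0 CPM). Mep1a was highest of its group in model 3 and Rhy 1 (296 and 431 CPM) but not in control 3 (494 CPM, against 550 in control 2). The same held for Slc3a1, at 32.8 CPM in model 3, 32.1 in Rhy 1 and 72.5 in control 3, against 81.4 in control 2. No DXM library had little Hoxb13. Slc3a1 was at 0.506 to 5.76 CPM in DXM and at 8.54 CPM or more in the other libraries with high Hoxb13. The part of colon position in its DXM values was not tested. Sis and Dpp4 had their highest control level in control 3 (14.5 and 40.4 CPM), while Dpp4 was lowest of its group in model 3 and Rhy 1 (33.4 and 30.9 CPM). With only the 9 libraries at 5 CPM of Hoxb13 or more, an alternative added after seeing the data, the medians over members were -1.48 for model against control, 0.97 for Rhy against model, 0.52 for Rhy against control (0.23 with all libraries) and -1.08 for DXM against control. The median for DXM against model was -0.20, against 0.10 with all libraries.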

How the data were processed

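RNA was measured by sequencing in the colons of 12 mice, 3 in each of 4 groups taken from the labels. The counts deposited for each gene are raw read numbers, and the deposited FPKM values were made by the authors from them by gene length and library size. The submitters' processing notes name HISAT2 2.0.5, featureCounts 1.5.0-p3, DESeq2 1.16.1 and the mm10 build; a strand setting for counting is not given in the sources used here. Of the gene identifiers in both, 98.3% had the start and end of GENCODE M21, and 7 of the 9 members did. There were 0 columns of other samples.

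Counts were fitted with edgeR 4.0.16 under R 4.3.3, with TMM factors, filterByExpr at a minimum count of 10 and the two-sided quasi-likelihood test (glmQLFTest) of group means over all 12 libraries together. P-values were adjusted by Benjamini-Hochberg over the 16904 genes kept. A prior count of 2 went into log2 CPM. Alternatives were DESeq2 1.42.0, limma 3.58.1 on log2(FPKM + 1) and log2(FPKM + 0.1), other scalings, filters and terms, a replicate block and each library left out, 24 in all. The fits were tested on simulated counts. Nothing says that the libraries came from separate cages or days, so errors measure the spread between these samples.

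The members and lists were chosen with earlier results of these data known. Named genes are the 9 members, the 3 genes of each list with the highest FPKM, the 5 most alike genes with a mean CPM of 5 or more, and markers whose values stand beside a result; Prepl, Gata4, Lct and Garem1 were named after their values were seen. Markers of T cells and of pancreatic acinar cells were also read: T cell markers summed to 7.79 to 40.6 CPM and acinar markers to at most 0.225 CPM.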

Additional observations from a re-analysis of the deposited data

How the results depend on the processing

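The count of genes with an adjusted p under 0.05 was 0 in each comparison with edgeR. With every gene that had any count it was 1 for model against control, 1 for Rhy against control and 13 for DXM against control, Slc3a1 among the 13. With only the groups compared it was 1 for model against control and 2 for DXM against model, with limma on log2(FPKM + 0.1) 2 for Rhy against model and 2 for DXM against model, and with only libraries at 5 CPM of Hoxb13 or more 2 for DXM against model. DESeq2 called 46 for model against control, 5 for Rhy against model, 51 for DXM against model, 32 for Rhy against control and 1059 for DXM against control. With 1 library left out, the count ranged from 0 to 1 for model against control, Rhy against model and Rhy against control, and from 0 to 4 for DXM against control. The median over members in model against control was -1.38, and -0.97 with limma on log2(FPKM + 1) and -0.56 with the epithelial markers as a term; with 1 library left out in DXM against control it ranged from -1.70 (without DXM 1) to -0.60 (without control 1). With model 1 and model 2 summed it was -1.22 for model against control, 1.35 for Rhy against model and 0.36 for DXM against model. The cause of these shifts was not tested. The median kept its sign in all 24 alternatives for model against control, Rhy against model and DXM against control. It turned in 1 of 24 for Rhy against control (-0.33 without Rhy 3) and in 5 of 24 for DXM against model, with -0.49 without DXM 1 as the lowest.

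Deviations of same-numbered libraries had an r of 0.331, 0.058 and 0.433 for model against control, all above 0. For the other comparisons r ran from -0.363 to 0.3. For Rhy against control it was -0.363, -0.198 and -0.025, all below 0, and the remaining comparisons had both signs. No label pairs the libraries, so the numbers were not taken as pairs in the main fit, and shared handling of same-numbered libraries was not tested. With a replicate block the median over members was -1.25 for model against control and 1.23 for Rhy against model, and the block gave 0 calls in each comparison.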
